A study of Mus musculus with 4 samples.

Results

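A set of 10 genes commonly used to mark neutrophils was followed through 4 RNA-seq libraries of imiquimod-treated mouse skin, labelled as CD4+ T cells. The genes, chosen by name, were S100a8, S100a9, Csf3r, Cxcr2, Retnlg, Ly6g, Mxd1, G0s2, Trem1 and Lcn2, 10 of the 55335 genes in the deposited count tables. Control libraries (control 1 and control 2) came from Mettl3fl/fl mice. Knockout libraries (knockout 1 and knockout 2) came from Mettl3fl/fl;Cd4-Cre mice, in which Cre is driven by the Cd4 promoter, active in developing T cells, and deletes floxed alleles of the m6A methyltransferase gene Mettl3. All mice were 8 to 12 weeks old and received 5% imiquimod cream, a Toll-like receptor agonist that gives a psoriasis-like inflammation, on the back for 5 days. The daily amount was 15 or 62.5 mg, without a statement of which mouse received which. The number of mice behind a library is not stated either, so the spread between libraries may be partly technical.

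Neutrophils are short-lived granulocytes that enter inflamed skin, where in psoriasis they gather in the upper epidermis. Their production depends on granulocyte colony-stimulating factor acting on Csf3r, and their recruitment on CXC chemokines acting on Cxcr2. S100a8 and S100a9 encode the subunits of calprotectin, the calcium- and zinc-binding complex that fills neutrophil cytoplasm, and Lcn2 encodes a granule protein that binds bacterial siderophores. Several of the 10 genes are not limited to neutrophils: monocytes and macrophages also express Mxd1, G0s2 and Trem1, and keratinocytes of inflamed skin also make S100a8, S100a9 and Lcn2. Ly6g, the antigen used to sort mouse neutrophils, and Retnlg, a resistin-like secreted protein, are the more restricted ones in mice.

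Of the 10 genes, 8 had at least 1 counted fragment and 5 had fragments in every library. The abundant ones were Mxd1, Lcn2, G0s2, Trem1 and S100a8, which several cell types express. The receptors Csf3r and Cxcr2 were near the limit of detection, and Ly6g and S100a9 had no fragment in any library. A library's limit for a count of 0, set at 3 fragments, was 0.655 to 0.792 CPM (fragment counts scaled to library size with TMM factors, the unit of every level given here unless a level per kilobase is named). Intervals and limits cover counting error only.

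**Figure D1:**
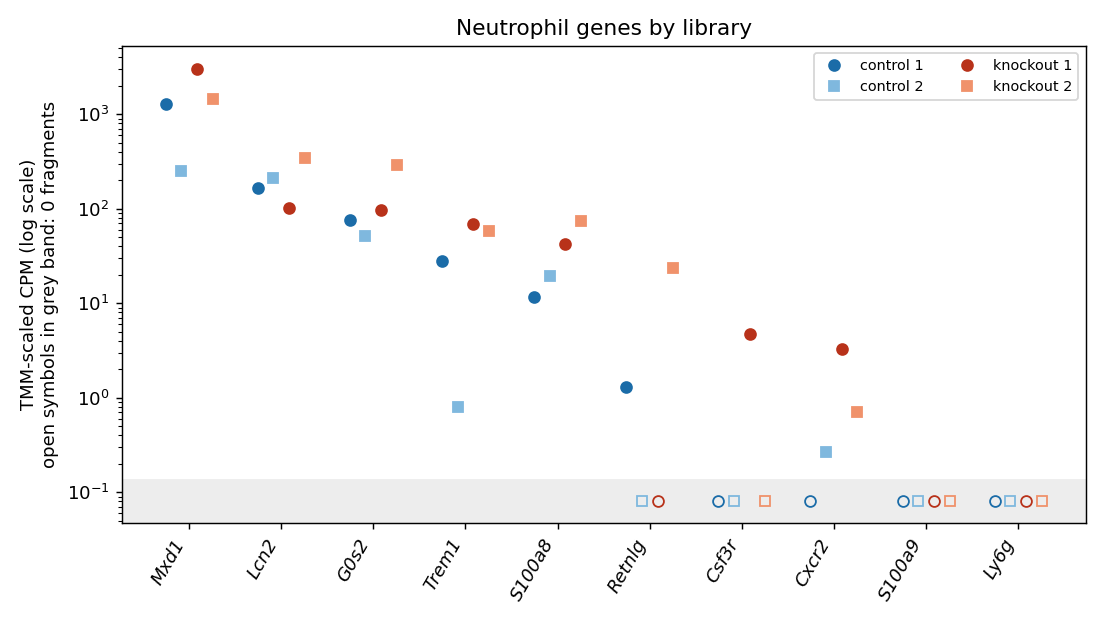
Level of the 10 neutrophil genes in each library, in TMM-scaled CPM on a log axis, ordered by total fragments. Filled symbols are single libraries, and open symbols in the grey band are libraries with 0 fragments: S100a9 and Ly6g had none, and Retnlg stood out in knockout 2 at 23.6 CPM.

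How the fragments were counted decides what these values describe. The deposited tables count fragments per exon entry of the annotation, and a fragment touching more than 1 entry was left out. A base can therefore contribute only where a single exon entry covers it. That held for all 871 exon bases of G0s2 and all 593 of Retnlg, but for 13 of the 522 bases of S100a9 (2.49%) and 280 of the 3609 bases of Csf3r (7.76%). The other shares were 86.3% for Mxd1, 64.4% for Ly6g, 58.2% for S100a8, 52.6% for Lcn2, 30.8% for Trem1 and 27.2% for Cxcr2. A fragment spliced across exons also touches more than 1 entry, so it was left out even where each base is singly covered. The 0 of S100a9 thus says nothing about its level. Ly6g had 607 such bases and still no fragment, but it belongs to a cluster of similar Ly6 genes, and reads with several possible positions were left out of the counting.

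For S100a8 and Lcn2, most counted fragments lay in introns of the coding transcript, so those intron stretches are shown. S100a8 (GRCm38 chromosome 3, 90668978 to 90670035, plus strand) has an exon entry of a retained-intron transcript that runs through the end of the first intron into the second exon. Only its intron bases, chr3:90669311-90669518, are covered by 1 entry, and they end at the splice acceptor, in capitals. Lcn2 (chromosome 2, 32384633 to 32388252, minus strand) has a whole intron, chr2:32385521-32385705, inside a retained-intron entry, with its splice donor and acceptor in capitals. Retnlg (chromosome 16, 48872621 to 48874496, plus strand) is the contrasting case, counted over 3 coding exons. The coding part of its second exon, chr16:48872862-48873006, is shown with the start codon in capitals. Sequences are from the GENCODE M21 transcripts on GRCm38, 5′ to 3′.
S100a8 intron end: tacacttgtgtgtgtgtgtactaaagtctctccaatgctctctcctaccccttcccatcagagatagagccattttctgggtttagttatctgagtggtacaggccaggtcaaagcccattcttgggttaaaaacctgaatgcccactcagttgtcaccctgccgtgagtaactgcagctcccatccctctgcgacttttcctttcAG
Lcn2 intron: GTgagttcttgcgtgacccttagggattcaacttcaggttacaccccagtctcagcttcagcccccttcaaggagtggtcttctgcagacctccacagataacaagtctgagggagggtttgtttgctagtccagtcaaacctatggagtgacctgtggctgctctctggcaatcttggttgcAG
Retnlg coding start: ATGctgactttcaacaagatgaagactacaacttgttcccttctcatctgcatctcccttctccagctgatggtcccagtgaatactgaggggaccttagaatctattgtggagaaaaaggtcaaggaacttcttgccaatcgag

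Some facts of the whole series touch every result. Totals were 3614418 to 4537006 fragments per library. Control 2 stood apart: 4064 of the 12434 genes tested had no fragment there, against 221 to 860 in the other libraries, and keratinocyte markers were high in it. Mettl3 was counted with 195 and 49 fragments among the controls, and with 121 and 158 among the knockouts. These counts do not check the deletion, since the labels do not say which exons were deleted. T cell markers were sparse for the label: Cd4 had 777, 0, 420 and 9 fragments for control 1, control 2, knockout 1 and knockout 2, and Cd3e had 282, 1, 80 and 42. Cd3d had 299 to 478 in the controls and 101 in each knockout. The neutrophil genes and each list below are therefore also given without control 2.

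The calprotectin gene S100a8 was higher in both knockouts than in both controls when all its fragments were summed, but not in its own exons. Controls 1 and 2 gave 53 and 73 fragments (11.6 and 19.3 CPM), knockouts 1 and 2 gave 172 and 313 (42.9 and 74.0 CPM). The groups did not overlap, and the difference did not pass the test (log2 fold change 1.92, standard error, SE, 1.06, edgeR quasi-likelihood test, adjusted p = 0.9997). Of these fragments 75.8% lay in the intron stretch printed above. That stretch held 48 and 0 fragments for controls 1 and 2, against 138 and 277 for knockouts 1 and 2. The first exon and the end of the last exon together held 5, 73, 34 and 36 in the same order, or 1.09, 19.3, 8.49 and 8.51 CPM.

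In exon bases, then, control 2 had the highest S100a8 level and control 1 the lowest, with both knockouts between them. Without the retained-intron entries the log2 fold change was -0.13 (SE 1.86). The intron share of S100a8 was 90.6% in control 1 (exact 95% interval 79.3 to 96.9), 80.2% for knockout 1 (interval 73.5 to 85.9) and 88.5% for knockout 2 (interval 84.4 to 91.8). In control 2 it was 0 of 73 fragments, which allows a share of up to 4.11%. Control 2 was also the library with the highest keratinocyte marker sum, at 23395 CPM against 1059 to 2252 in the others, and the part of those markers in the S100a8 values was not tested. Over all genes, retained-intron entries held 7.23% of fragments in control 2 and 7.63% to 9.33% in the other libraries.

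**Figure D2:**
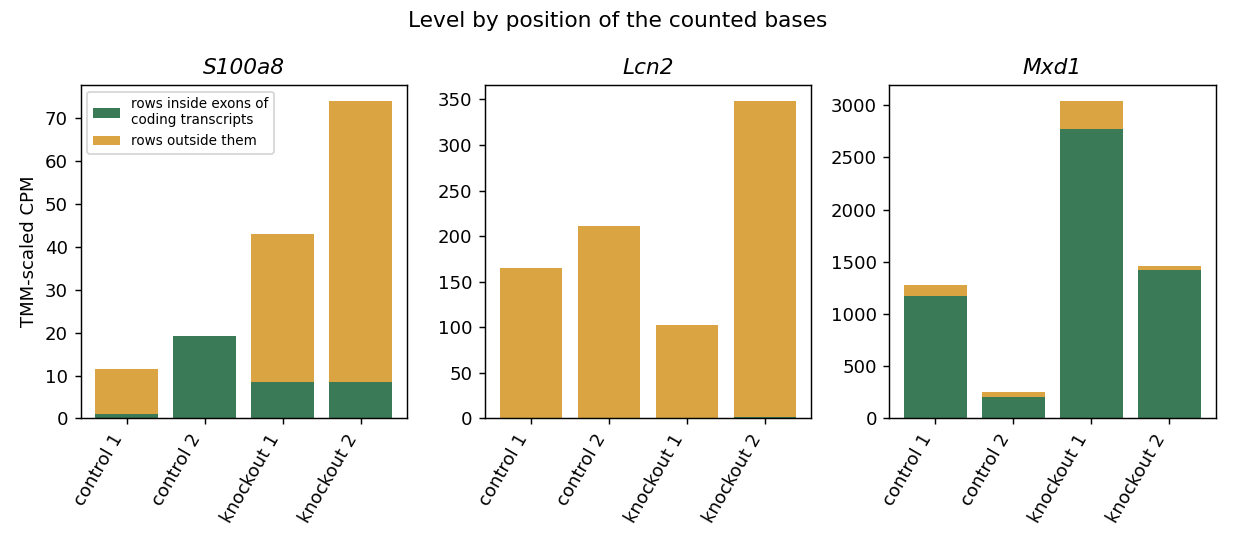
Level of S100a8, Lcn2 and Mxd1 in each library, in TMM-scaled CPM, as stacked bars split by whether the singly covered bases of the exon entry lie inside exons of coding transcripts (green) or outside them (yellow). S100a8 lay wholly inside in control 2 and mostly outside in the other 3 libraries, Lcn2 almost wholly outside, and Mxd1 mostly inside.

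S100a9, the partner subunit (90692632 to 90695721, minus strand), lies on the same chromosome, with 22596 bases between it and S100a8. It had 0 fragments in all 4 libraries. With 13 countable bases, no level of calprotectin's second subunit can be read from these tables.

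Lcn2 did not differ in a common direction between the genotypes. Controls 1 and 2 gave 758 and 801 fragments (165.5 and 211.4 CPM), knockouts 1 and 2 gave 411 and 1474 (102.6 and 348.5 CPM). One knockout lay below both controls and the other above both. The control mean was 188.4 ± 32.5 CPM and the knockout mean 225.5 ± 173.9 CPM (SD over 2 libraries), for a log2 fold change of 0.26 (SE 0.77, edgeR adjusted p = 0.9997). Of its 3444 fragments, 99.7% lay in entries whose countable bases fall outside the exons of coding transcripts. The intron printed above alone gave 101.5 and 115.9 CPM for controls 1 and 2, then 64.6 and 202.8 CPM for knockouts 1 and 2, the same order of libraries. These values describe bases outside the exons of coding transcripts. Of the 1236 bases inside such exons, 359 were singly covered. Those held 0 fragments in each control, and 2 and 8 for knockouts 1 and 2.

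Among the receptors, Trem1 was the abundant one. Trem1 (chromosome 17, 48232768 to 48246924, plus strand) encodes an immunoglobulin-type receptor that amplifies inflammatory signals in neutrophils and monocytes. Controls 1 and 2 gave 129 and 3 fragments (28.2 and 0.792 CPM), knockouts 1 and 2 gave 276 and 244 (68.9 and 57.7 CPM). All lay in a single coding exon of 357 bases (48236998 to 48237354). Both knockouts were above both controls, with a control mean of 14.5 ± 19.4 CPM and a knockout mean of 63.3 ± 7.92 CPM (SD over 2 libraries). The log2 fold change was 2.12 (SE 1.68, edgeR adjusted p = 0.9997). It fell to 1.16 without control 2, and the knockout mean was 2.25 times the level of control 1.

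Csf3r and Cxcr2, the receptors that define the neutrophil's growth factor and chemokine responses, were barely detected. Csf3r (chromosome 4, 126024550 to 126044440, plus strand) had 19 fragments in knockout 1 and 0 in the other 3 libraries. All 19 lay in 1 exon entry of a non-coding transcript (126027189 to 126027316), at 4.74 CPM with an exact 95% counting interval of 2.86 to 7.41. Cxcr2 (chromosome 1, 74153989 to 74161246, plus strand) was counted with 0 and 1 fragments for controls 1 and 2, and with 13 and 3 for knockouts 1 and 2. Pooled by genotype, the ratio of knockout to control was 16.3 with a counting interval of 2.53 to 682. Knockout 2, at 0.709 CPM, was no higher than the limit for a count of 0, so the ratio rests on knockout 1. The counting interval also leaves out the spread between libraries. Neither gene passed the low-count filter. In edgeR without that filter, the log2 fold change was 6.37 (SE 4.27) for Csf3r and 3.83 (SE 3.94) for Cxcr2. The adjusted p was 0.9997 for each in that edgeR test.

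The restricted secreted and surface markers were at 0 in most libraries. Retnlg had 6 fragments in control 1, 100 in knockout 2 and 0 in control 2 and knockout 1. In knockout 2 it was at 23.6 CPM, with a counting interval of 19.2 to 28.8, spread over 3 exons with 22, 21 and 57 fragments. The knockouts thus differed from each other more than either control did from knockout 1. The pooled ratio of knockout to control was 16.9 with a counting interval of 7.51 to 47.2, all of it from knockout 2. That interval leaves out the spread between libraries. In edgeR without a low-count filter, the Retnlg log2 fold change was 4.13 (SE 2.83, adjusted p = 0.9997). Ly6g (chromosome 15, 75155240 to 75159126, plus strand) was at 0 in all 4 libraries.

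The intracellular members Mxd1 and G0s2 were counted mainly in exons. Mxd1 (chromosome 6, 86647042 to 86669161, minus strand) encodes a repressor that competes with Myc for the partner Max and rises as granulocytes mature. Controls 1 and 2 gave 5874 and 953 fragments (1282 and 251.6 CPM), knockouts 1 and 2 gave 12183 and 6155 (3041 and 1455 CPM). Both knockouts were above both controls, but knockout 2 was 1.13 times the level of control 1. The log2 fold change was 1.55 (SE 0.90, edgeR adjusted p = 0.9997), 0.80 without control 2 and 3.23 without control 1. The last exon (86647042 to 86651079), which holds mostly untranslated sequence, carried 92.4% of the fragments.

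G0s2 (chromosome 1, 193272161 to 193273217, minus strand) encodes an inhibitor of the triglyceride lipase Pnpla2. Controls 1 and 2 gave 349 and 194 fragments (76.2 and 51.2 CPM), knockouts 1 and 2 gave 391 and 1232 (97.6 and 291.2 CPM). Knockout 1 was 1.28 times the level of control 1, and knockout 2 was 3.82 times. The log2 fold change was 1.61 (SE 0.82, edgeR adjusted p = 0.9997) and 0.68 without knockout 2. Of its fragments 95.2% lay in the exon with the coding sequence (193272161 to 193272802).

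Between knockout and control libraries no neutrophil gene passed the threshold of 0.05 in either direction, as was true of all genes tested (0 of 12434, or 0%, by edgeR). At an unadjusted p under 0.05 there were 187 genes over the table and 0 of the 5 tested neutrophil genes. DESeq2 called 4 genes higher (0.0322%) and 13 lower (0.105%), and edgeR without a low-count filter called 8 of 24651 higher (0.0325%) and 19 lower (0.0771%), none of them a neutrophil gene. The lowest p that an exact two-sided permutation test could give for 2 against 2 libraries is 0.333. The 5 tested were S100a8, Mxd1, G0s2, Trem1 and Lcn2, each of which reached the filter level in at least 3 libraries. The log2 fold change was positive for all 5, with a median of 1.61, against 0.20 over all genes tested, of which 56.9% were positive. Both knockouts lay above both controls for 4 of the 5, where the share of all genes tested was 19.5%, and below for 0, where it was 11.2%. Without retained-intron entries 3 of the 5 lay above both controls, where the share of all genes was 19.1%, since S100a8 then overlapped. With control 2 left out, the median was 1.16, against 0.05 over all genes, and the 4 genes remained above control 1, as did 27.3% of all genes. With control 1 left out, the median was 1.99, against 1.72 over all genes, of which 52.4% lay above control 2.

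**Figure D3:**
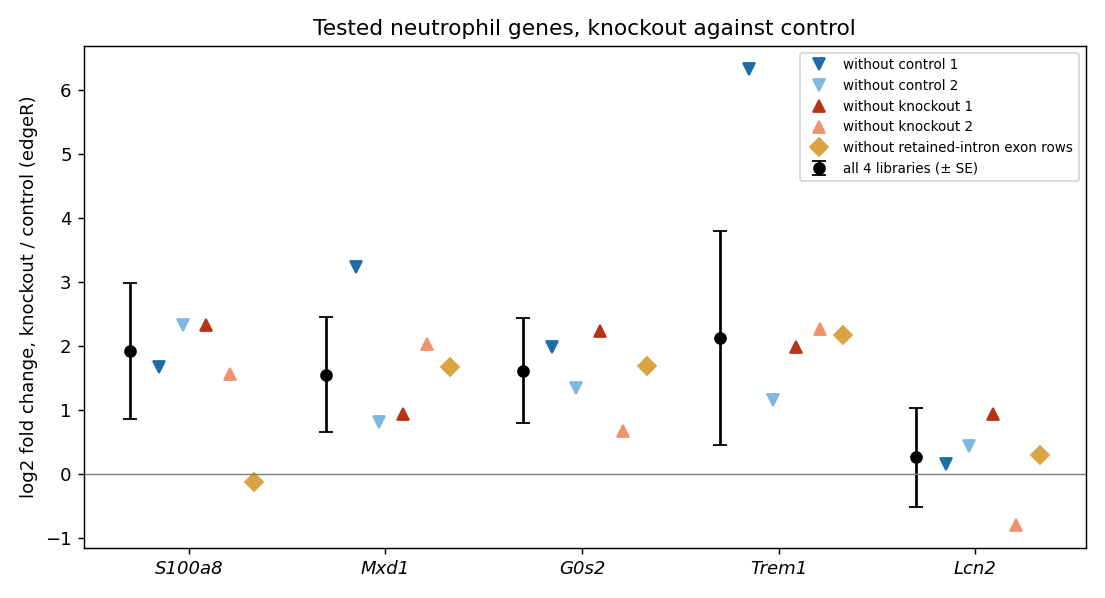
Log2 fold change of the 5 tested neutrophil genes, knockout over control, by edgeR. Black points with bars are all 4 libraries with the SE, triangles leave out 1 library and diamonds leave out retained-intron entries. S100a8 moved from 1.92 to -0.13 without those entries, Trem1 reached 6.33 without control 1, and Lcn2 was at -0.80 without knockout 2.

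The 2 knockout libraries did not share a pattern over the members. Mxd1, Csf3r and Cxcr2 were highest in knockout 1, and Trem1 was slightly higher there (68.9 against 57.7 CPM, with counting intervals of 61.0 to 77.5 and 50.7 to 65.4). With all entries summed, S100a8, G0s2, Lcn2 and Retnlg were highest in knockout 2, at 1.72, 2.98 and 3.40 times the knockout 1 level for the first 3. For S100a8 that step lay in the intron stretch. Its exon bases were at 8.49 and 8.51 CPM for knockouts 1 and 2, below control 2 at 19.3 CPM. The Lcn2 step rests on fragments of which 99.7% lay outside exons of coding transcripts. Summed over the 10 genes, controls 1 and 2 were at 1565 and 534.5 CPM and knockouts 1 and 2 at 3361 and 2251 CPM, and Mxd1 made up 47.1% to 90.5% of it. Without Mxd1 the sums were 282.7, 283.0, 320.0 and 795.7 CPM, so that control 1, control 2 and knockout 1 were close and knockout 2 stood above them.

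Between genes, levels can be set side by side per length only, and roughly. Per kilobase of singly covered bases, the mean level over the 4 libraries was 247.1 CPM for Mxd1, 150.0 for Lcn2, 148.2 for G0s2, 91.4 for S100a8 and 42.2 for Trem1. Retnlg followed at 10.5, Csf3r at 4.23 and Cxcr2 at 1.27. This order mixes kinds of bases. Fragments outside exons of coding transcripts made up 99.7% for Lcn2, 75.8% for S100a8 and 100% for Csf3r, against 0% for G0s2. The values of Lcn2, S100a8 and Csf3r are therefore not levels of their coding exons. The ranges of neighbours in this order overlapped throughout, from 41.2 to 498.5 CPM per kilobase for Mxd1 and from 74.3 to 252.5 for Lcn2, for example.

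Of 16 ligands and partners of the members, 14 had at least 1 fragment. Of the 10 tested, 0 passed, 9 were positive and 5 had both knockouts above both controls, with a median log2 fold change of 0.89. Over all genes tested 56.9% were positive, 19.5% had both knockouts above both controls and the median was 0.20, values that apply to each list below as well. Without control 2, 6 of the 10 were positive, with a median of 0.23, where 52.3% of all genes were positive. Csf3, the granulocyte colony-stimulating factor that binds Csf3r, had control levels of 308.9 and 47.5 CPM and knockout levels of 820.7 and 641.8 CPM (log2 fold change 2.04, SE 0.96, and 1.24 with SE 0.57 without control 2). The Cxcr2 ligand Cxcl2 had control levels of 143.0 and 72.6 CPM and knockout levels of 542.4 and 283.4 CPM (1.94, SE 0.69), with 99.98% of its fragments in retained-intron entries. Cxcl1, another such ligand, had control levels of 225.7 and 160.5 CPM and knockout levels of 272.8 and 297.2 CPM, also all in such entries.

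Counts of the other chemokines and partners varied from abundant to 0. Cxcl3 had control levels of 19.4 and 6.86 CPM and knockout levels of 74.9 and 21.3 CPM. Its relative Cxcl5 had 18 and 0 fragments among the controls and 4 and 0 among the knockouts. All fragments of Cxcl3 and Cxcl5 lay in retained-intron entries. Tlr4, a receptor for calprotectin, had control levels of 68.1 and 75.0 CPM and knockout levels of 243.1 and 97.6 CPM. Tyrobp, the adaptor through which Trem1 signals, had 16 and 0 control fragments against 13 and 14 knockout fragments, and Pnpla2, the lipase that G0s2 blocks, had 35 and 0 against 15 and 3. Max, the partner of Mxd1, had 13 fragments in knockout 1 and 0 elsewhere. Pglyrp1, a peptidoglycan-binding granule protein proposed as a Trem1 ligand, had 0 in all 4 libraries. Low counts here are limited by coverage: singly covered bases were 98 of 667 for Tyrobp and 288 of 1863 for Cxcl5. They were 961 of 3020 for Pnpla2, 1661 of 3598 for Max and 988 of 1837 for Pglyrp1.

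Granule genes split into a group near 0 and a few abundant ones. Of 13 genes, 7 were tested, 0 passed, 4 were positive, all 4 with both knockouts above both controls, and 3 were negative. These counts were the same without control 2, a library in which 4 of the 7 had 0 fragments. Of the azurophil granule proteins, Mpo (myeloperoxidase) had 0 fragments in all 4 libraries and Elane (neutrophil elastase) had 60 in knockout 2 and 0 in the others. Retnlg was highest in that library too. Among specific granule proteins, Ltf (lactoferrin) had 3 and 0 control fragments and 6 and 0 knockout fragments. Camp (cathelicidin) had 0 and 3 against 1 and 16, and Ngp had 4 and 0 against 0 and 1. These zeros rest on 888 singly covered bases for Mpo, 984 for Elane, 1373 for Ltf, 758 for Camp and 1222 for Ngp. Fragments spliced across exons were left out of these counts too.

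The 2 matrix-degrading enzymes Mmp8 and Mmp9 differed from each other in abundance. Mmp8, neutrophil collagenase, had control levels of 342.7 and 231.5 CPM and knockout levels of 1527 and 642.8 CPM (log2 fold change 1.92, SE 0.65, edgeR adjusted p = 0.9997). Mmp9, gelatinase B, had 59 and 0 control fragments and 10 and 1 knockout fragments. No fragment of Mmp8 lay in a retained-intron entry. The other abundant genes of the list, named after their values were seen, were Chil3, a chitinase-like protein that macrophages also make (510.5 to 6575 CPM), and Hp, haptoglobin (380.1 to 1529 CPM).

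Surface and recruitment genes of neutrophils include many that monocytes and macrophages share. Of 13 surface genes 11 were tested, 0 passed, 11 were positive and 7 had both knockouts above both controls, with a median log2 fold change of 2.69. Of these 11, 7 had 0 fragments in control 2. Without that library 9 were positive and the median was 1.97. Cxcr1 had 0 fragments in all 4 libraries, with 406 of its 1491 exon bases singly covered. Cd177, a surface protein of neutrophils, had control levels of 13.3 and 0 CPM and knockout levels of 97.6 and 16.8 CPM. Of 11 recruitment genes 8 were tested, 0 passed, 7 were positive and 4 had both knockouts above both controls, with a median of 1.07. Without control 2, 5 were positive and the median was 0.62. The negative gene over all 4 libraries, named after its values were seen, was Il17a, the cytokine interleukin-17A. It had 469 and 56 control fragments and 65 and 1 knockout fragments (log2 fold change -2.83, SE 2.06, and -3.64 without control 2). Il1b, the cytokine interleukin-1 beta, had control levels of 1549 and 993.3 CPM and knockout levels of 3812 and 2527 CPM (log2 fold change 1.32, SE 0.53, edgeR adjusted p = 0.9997).

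**Figure D4:**
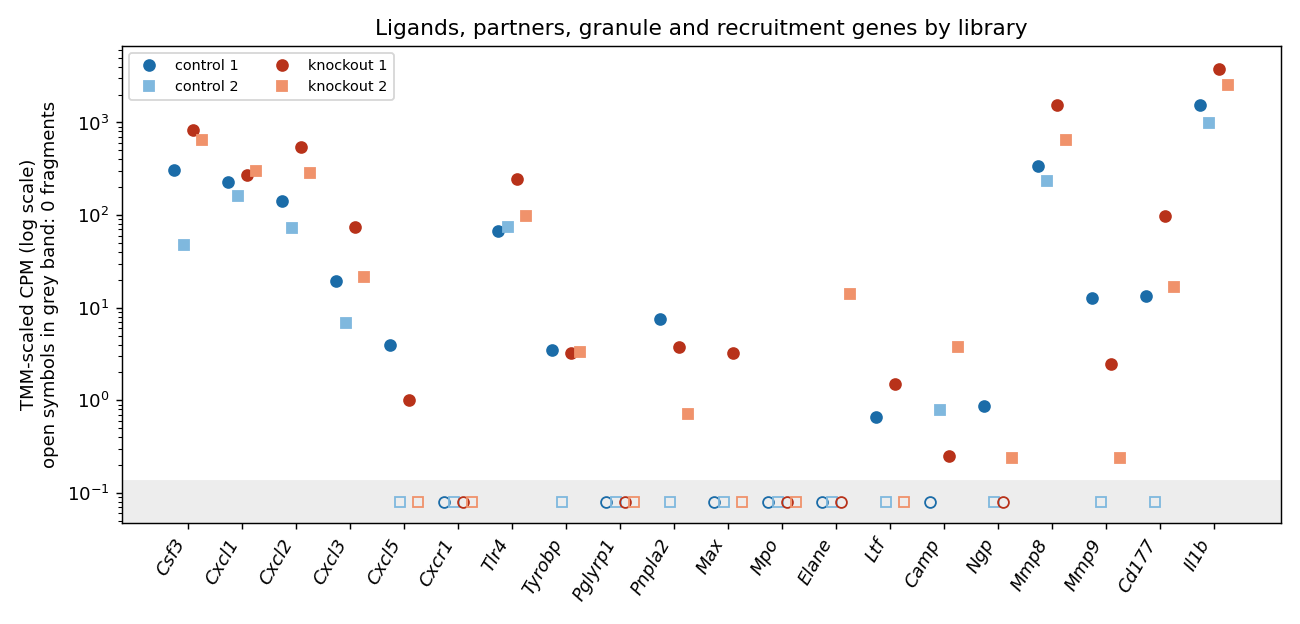
Level of 20 genes around the members (ligands, partners, granule and recruitment genes) in each library, in TMM-scaled CPM on a log axis, with open symbols in the grey band for 0 fragments. Csf3, Cxcl1, Cxcl2, Mmp8 and Il1b were abundant in all 4 libraries, while Mpo, Cxcr1 and Pglyrp1 had none.

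Markers of other cells also differed between libraries. The 11 macrophage and monocyte markers summed to 17778 and 8761 CPM for controls 1 and 2, and to 27886 and 25821 CPM for knockouts 1 and 2. That is the order control 2, control 1, knockout 2, knockout 1. The summed neutrophil genes, Mxd1 and Trem1 had the same order, but Mxd1 made up 47.1% to 90.5% of that sum. Without Mxd1 the sums were 282.7 and 283.0 CPM for controls 1 and 2, and 320.0 and 795.7 CPM for knockouts 1 and 2. S100a8, G0s2 and Lcn2 had other orders, each highest in knockout 2. For S100a8 this held only with its intron fragments included, since control 2 was highest in its exon bases. None of the macrophage and monocyte markers was at 0 in all libraries. All 11 were positive (median log2 fold change 1.57), 8 of them with both knockouts above both controls, where the shares of all genes were 56.9% and 19.5%. Without control 2 all 11 were positive, with a median of 0.87. Their first-listed members Lyz2, Cd14 and Csf1r had 14683 to 57497, 3703 to 28384 and 2 to 49 fragments per library. The part of these markers in the neutrophil gene differences was not tested, and in bulk RNA more cells of a type and more RNA per cell cannot be told apart.

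The ligand and partner, granule, surface and recruitment lists had sums in the same order as those markers. For controls 1 and 2, then knockouts 1 and 2, ligands and partners summed to 918.6, 387.0, 2139 and 1463 CPM. Granule genes gave 2463, 1123, 8820 and 6526 CPM, and surface genes 1464, 318.3, 3074 and 2576 CPM. Recruitment genes gave 6688, 3176, 13632 and 7497 CPM. The remaining lists, for other cell types, did not follow that order. T cell markers (9 genes) summed to 812.0 and 243.1 CPM for controls 1 and 2, and to 253.6 and 99.8 CPM for knockouts 1 and 2, with all 9 negative (median -1.08, and -2.05 without control 2). Fibroblast markers (7 genes) ranged from 2583 to 12029 CPM, mast cell markers (6 genes) from 81.3 to 364.5 with the highest sum in knockout 2, and dendritic and Langerhans cell markers (7 genes) from 181.9 to 879.1. Eosinophil markers (4 genes) summed to 14.8 and 12.4 CPM for the controls, with the knockouts no higher than 1.89 CPM. The control sums were mostly Ccr3, the eotaxin receptor, named after its values were seen, with 62 and 46 fragments against 1 and 0 in the knockouts. B cell markers (3 genes) summed to 0.792 to 8.24 CPM. Keratinocyte markers (9 genes) were negative for 8 of 9, with a median of -2.84, but for 4 of 9 without control 2, with a median of 0.16. Without control 2 the median went from -0.40 to -1.08 for the 6 fibroblast markers tested, from 1.64 to 0.85 for the 3 mast cell markers and from 0.51 to -0.08 for the 5 dendritic and Langerhans cell markers. The lone tested B cell marker went from 0.94 to 0.10, and Ccr3 from -6.39 to -6.48. No member of any of these lists passed the test.

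The leading markers of these lists differed in how well they were counted. Among the keratins, Krt14 had 19489 fragments in control 2 against 1594 to 3272 elsewhere, Krt5 had 19916 against 1023 to 2170, and Krt10 had 2419 against 63 to 126. The collagen genes Col1a1 and Col1a2 had 734 to 11611 and 901 to 8769 fragments, and the fibroblast receptor Pdgfra 0 to 11. The mast cell proteases Cpa3 and Mcpt4 had 1 to 892 and 202 to 390 fragments. Cma1 had no more than 1, with 16 of its 1090 exon bases singly covered. Cd207 (langerin), Flt3 and Xcr1 of dendritic cells had 504 to 2256, 0 to 153 and 0 to 440. The B cell genes Cd79a and Ms4a1 had 2 to 31 and 0 to 2, and the eosinophil genes Epx, Prg2 and Siglecf 0 to 6, 0 to 5 and 0 to 8. For Siglecf, 177 of 2790 exon bases were singly covered.

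**Figure D5:**
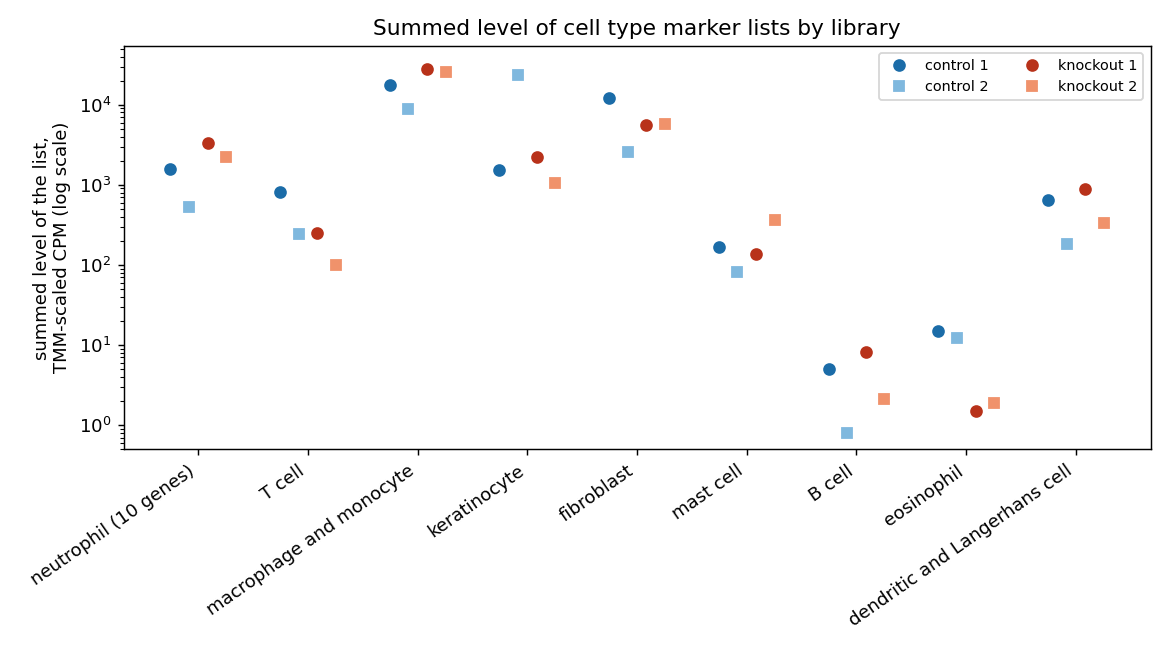
Summed level of the 10 neutrophil genes and of 8 marker lists for other cells in each library, in TMM-scaled CPM on a log axis. As counted, the macrophage and monocyte sum exceeded the neutrophil sum in every library, and keratinocyte markers peaked in control 2 at 23395 CPM. Lyz2 alone gave 3876 to 14351 CPM of the macrophage and monocyte sum. S100a9, with 13 countable bases, added 0 to the neutrophil sum, so the sums do not compare amounts of cells.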

How the data were processed

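The deposited values are raw fragment counts per exon entry, whole numbers without normalization. Counting was by featureCounts 2.0.1 against GENCODE M23 on GRCm38 alignments, per the file headers, with strand ignored and chimeric or half-mapped pairs dropped. Trim Galore 0.6.7 and STAR 2.7.9a did the trimming and alignment, per the submitters' processing notes. Poly(A) RNA was copied from oligo-dT and amplified by a SMART reaction, per the labels' protocols, with no molecular identifiers described. The treatment of duplicates is not stated. RNA of the opposite strand cannot be told apart.

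Exon entries were summed for each of 55335 genes, 55154 of them with a symbol. Transcript types came from GENCODE M21, in which 99.7% of entries had the same gene and coordinates. Entries that share coordinates with another (64.8%) held 0 fragments. Genotypes were compared in edgeR 4.0.16 under R 4.3.3 (two-sided quasi-likelihood test without covariates, TMM scaling). Genes were kept by filterByExpr with 10 as the minimum count, which left 12434, and p was adjusted over all of them by the Benjamini-Hochberg method at 0.05. The procedure was also run on simulated counts with a fixed spread between libraries, not estimated from these data. That run therefore does not show how well changes would be found here. Alternatives were DESeq2 1.42.0, limma-voom (limma 3.58.1), other scalings, no filter, each library left out and no retained-intron entries. Chi-square per degree of freedom between pairs of libraries was 45.6 to 182.2, so none was treated as a repeat of another. Replicate numbers only name libraries.

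The members and gene lists were chosen with earlier results of these data known. Named genes are the 10 members, a set of 20 ligands, partners, granule, surface and recruitment genes, and the first 3 markers of each list for another cell type, of which 1 is not reported here.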

Additional observations from a re-analysis of the deposited data

How the results depend on the processing

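No neutrophil gene was called under any of the 10 alternatives run. The count of genes called over the whole table was 0, against 17 by DESeq2 (4 higher, 13 lower) and 27 without a low-count filter (8 higher, 19 lower), and it lay between 0 and 4 with 1 library left out. The median log2 fold change of the 5 tested neutrophil genes stayed positive, between 1.16 and 1.99 with 1 library left out and between 1.58 and 1.85 under the other alternatives. The median of all genes moved from 0.20 to 1.72 without control 1. Over the keratinocyte markers it turned from -2.84 to 0.16 without control 2. S100a8 turned from 1.92 to -0.13 without retained-intron entries, which removes the intron stretch with most of its fragments, and Lcn2 from 0.26 to -0.80 without knockout 2, the library with its highest level, within a range of -0.80 to 0.94 with 1 library left out. Trem1 lay between 1.16 and 6.33, Mxd1 between 0.80 and 3.23 and G0s2 between 0.68 and 2.22 with 1 library left out. Their lowest adjusted p over all alternatives, 0.054, 0.056 and 0.205, all came without control 1, where control 2 was the lone control and the median of all genes was 1.72. Csf3r, Cxcr2 and Retnlg had 19, 17 and 106 fragments in all, which limits their precision. No paired analysis was possible because the labels number no replicates and state no pairing.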
